A study of Mus musculus with 60 samples.

Results

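The 10 genes described here belong to one signalling loop in neurons and were measured in the prefrontal cortex of young mice: the orphan nuclear receptors Nr4a1, Nr4a2 and Nr4a3, the transcription factors Creb1 and Crem, the CREB coactivators Crtc1 and Crtc2, and the salt-inducible kinases Sik1, Sik2 and Sik3. They were chosen by name, with earlier results of these data known, and all 10 had a row among the 18088 genes of the table. Counts of called members are therefore set beside the shares of all genes as a description only. RNA was sequenced from 60 mice of strain C57BL/6J on postnatal day 25, in 12 groups of 5. The groups crossed 2 genotypes, wild type (WT) and Chd8+/N2373K (Het, heterozygous for the N2373K allele of the chromatin remodeler Chd8), with 3 treatments and both sexes. Pups received vehicle, fluoxetine (a selective serotonin reuptake inhibitor) or lithium (a mood stabilizer) by way of maternal milk during postnatal days 3 to 24. The labels give neither doses nor litters, so the dose reaching each pup is unknown, littermates may be among the replicates, and a p-value speaks only to the spread among these libraries.

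CREB is a transcription factor that is phosphorylated when calcium or cyclic AMP rises in an active neuron. CRTC proteins are its coactivators, held in the cytoplasm while SIK kinases phosphorylate them and released by calcineurin. Nr4a genes and Sik1 are classic immediate-early targets of this pathway, and the Sik1 protein in turn restrains CRTC, which closes a feedback loop. The Nr4a receptors act as transcription factors without a known classical ligand, and Nr4a2 is known as a lasting marker of deep cortical and claustral neurons. Crem encodes both activators and short repressor forms, which a count per gene does not separate.

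The textbook binding site of CREB is the cyclic AMP response element (CRE), of which TGACG is the core, called the half-site. Promoter windows from 250 bases before to 50 bases after the transcript start were found in RefSeq (build GRCm38.p6) for 7 of the 10 genes, all but Sik1, Crem and Crtc2. Stretches upstream of the start, outside annotated exons, are shown for the 3 Nr4a genes because these windows held the most half-sites; capitals mark TGACG or its reverse complement CGTCA, and each is written 5′ to 3′ on the gene's strand.
Nr4a1, chr15:101266596-101266845, plus strand: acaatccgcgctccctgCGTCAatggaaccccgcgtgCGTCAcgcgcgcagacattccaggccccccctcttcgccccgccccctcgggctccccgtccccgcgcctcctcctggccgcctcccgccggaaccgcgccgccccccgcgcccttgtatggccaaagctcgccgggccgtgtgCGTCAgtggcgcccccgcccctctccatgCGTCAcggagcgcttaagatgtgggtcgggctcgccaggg
Nr4a2, chr2:57124004-57124253, minus strand: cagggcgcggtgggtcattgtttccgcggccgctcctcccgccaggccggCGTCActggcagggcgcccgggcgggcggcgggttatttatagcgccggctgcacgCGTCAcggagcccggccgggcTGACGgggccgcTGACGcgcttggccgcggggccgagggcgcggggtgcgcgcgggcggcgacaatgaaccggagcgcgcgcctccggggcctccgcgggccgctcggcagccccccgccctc
Nr4a3, chr4:48045055-48045152, plus strand: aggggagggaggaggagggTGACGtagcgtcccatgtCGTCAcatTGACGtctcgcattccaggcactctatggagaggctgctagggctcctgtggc
The Nr4a1 stretch lies inside the annotated gene, in an intron of its longer transcripts, just before an internal transcript start. The Nr4a3 stretch ends where an annotated exon begins, so it holds 3 of that window's 4 half-sites.

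Each of the 3 Nr4a windows held 4 half-sites on the 2 strands together. At least 4 were found in 0.231% of the 32851 promoter windows of RefSeq. The Sik3 window held 3 half-sites (at least 3 in 1.03% of windows), the Sik2 window held 2 (at least 2 in 5.01%), and the windows of Creb1 and Crtc1 held 0, as did most windows, since 20.8% had at least 1. The full palindrome TGACGTCA, which contains the half-site on both strands, was in 0 of the 7 windows (1.79% of all windows). NBRE, the site AAAGGTCA bound by single Nr4a proteins, was also in 0 of 7 (1.51%), and the CArG box of serum response factor in 0 of 7 (1.63%). The EGR site GCGNGGGCG was in 4 of 7 windows, those of Nr4a1, Nr4a2, Creb1 and Sik2, against 5.55% of all windows. These are matches of letters, counted on both strands, and no binding was measured.

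**Figure D1:**
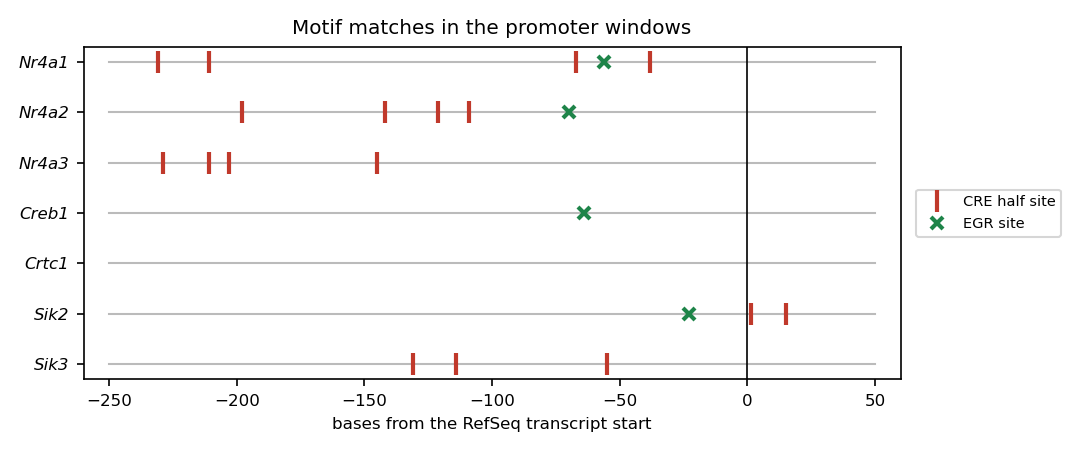
Positions of CRE half-sites (red ticks) and EGR sites (green crosses) in the 7 RefSeq promoter windows, in bases from the transcript start (vertical line). The windows of Nr4a1, Nr4a2 and Nr4a3 each hold 4 half-sites, all upstream of the start; the 2 in the Sik2 window lie at and after it.

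Values are normalized read counts, that is, reads of a gene divided by a size factor that puts the 60 libraries on one depth. Libraries held 24.05 to 31.65 M reads, with a median of 28.32 M. Chd8 itself stood at 3094 ± 91.7 (SD, n = 30) in WT and 2671 ± 134 (SD, n = 30) in Het libraries, with ranges of 2951 to 3285 and 2421 to 3072 that overlapped. Slc17a7, a marker of cortical excitatory neurons, was high in every library (34170 to 54210). Markers of neighbouring tissue varied: the summed level of 8 olfactory bulb markers ran from 1646 to 29270, with Tbx21 and Eomes at 0 in some libraries, and that of 8 striatal markers from 3884 to 22090. In whole tissue, fewer cells of a type and less RNA per cell cannot be told apart.

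Compared per kilobase of annotated exon in the 10 WT vehicle libraries, Nr4a1 was the most abundant of the 10 genes, at 687.7 ± 109 normalized reads per kb (SD). Crtc1, the main neuronal CRTC, followed at 430.1 ± 31.9, and Sik3, a broadly expressed kinase of the family, at 360.7 ± 18.3. Nr4a3 stood at 246.8 ± 59.3, and its libraries overlapped those of Sik3. Crtc2 (157.6 ± 9.6), Nr4a2 (146.1 ± 55.9), Creb1 (145.5 ± 8.2), Sik2 (125.6 ± 9.8) and Sik1 (113.4 ± 18.3) followed, the libraries of each overlapping those of its neighbour in this order. Crem was lowest at 68.5 ± 9.2. Libraries of Nr4a1 did not overlap those of Crtc1, nor those of Nr4a3 those of Crtc2; the other neighbours in the order overlapped.

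With fluoxetine, Nr4a1, Nr4a3 and Sik1 fell in both genotypes and both sexes; the smallest change was in Sik1 of Het females, which fell by 34.3%, and the largest in Nr4a3 of WT females, which fell by 57.4%. On average over these groups Sik2 and Crtc2 also fell, by 18.7% and 10.4%, and Sik3 rose by 11.1%. Nr4a2, Creb1, Crem and Crtc1 did not pass the test. With lithium, none of the 10 passed the test. Differences are given as log2 of the value plus 1, drug minus vehicle, with the standard error of the fit and the adjusted p of limma, a linear model over all 60 libraries whose p-values were adjusted over 17807 genes by Benjamini-Hochberg; a gene was called at an adjusted p under 0.05. Averaged over the 4 combinations of genotype and sex, 6 of the 10 genes were called with fluoxetine, 5 lower and 1 higher, where 33.6% of all genes tested were called, 16% lower and 17.6% higher. The median difference was -0.23 over the 10 genes and 0.01 over all genes.

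**Figure D2:**
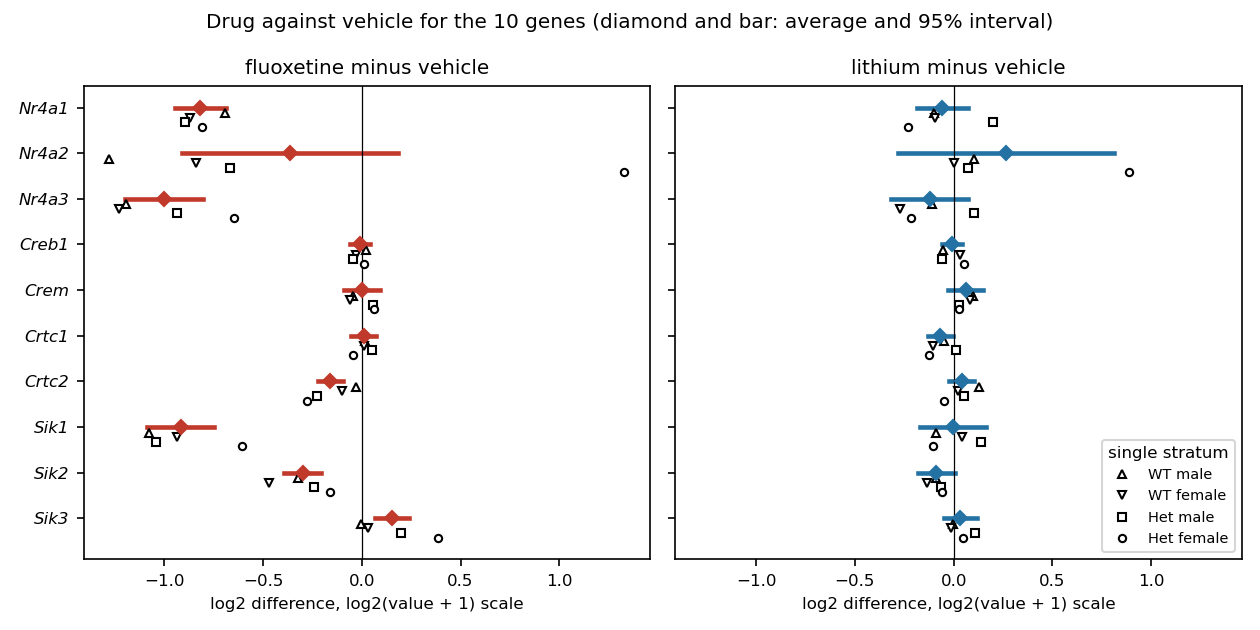
Log2 difference between drug and vehicle for the 10 genes, fluoxetine on the left and lithium on the right; diamonds and bars give the average of the 4 genotype and sex combinations with its 95% interval, open symbols the single combinations. Nr4a1, Nr4a3 and Sik1 lie left of 0 in all 4 combinations with fluoxetine, while every lithium interval but that of Crtc1 includes 0.

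Nr4a1 encodes the receptor also called Nur77 (chr15:101254269-101274795, GRCm38, plus strand). Over 20 libraries each, its level ran from 1927 to 3303 with a median of 2329 in vehicle mice, from 984 to 1894 with a median of 1353 with fluoxetine, and from 1692 to 2915 with a median of 2265 with lithium. All 20 fluoxetine libraries lay below the lowest vehicle library, whereas 4 of the 20 lithium libraries did. In WT males the vehicle libraries were at 2012, 2279, 2315, 2342 and 2371 and the fluoxetine libraries at 1247, 1279.7, 1475, 1503 and 1507. In WT females they were at 1937, 2354, 2499.6, 2717 and 3303 against 1096, 1168, 1490.3, 1569 and 1676. Neither WT pair overlapped. In Het males vehicle gave 1927, 2014, 2235, 2261 and 2756, and fluoxetine 984, 984, 1267, 1376 and 1435. In Het females vehicle gave 2181, 2296, 2399.8, 2456 and 2852, and fluoxetine 1095, 1290.4, 1331, 1424 and 1894, where the highest treated library still lay under the lowest vehicle library. The averaged difference was -0.82 ± 0.06 (adjusted p = 2.15e-14), a fall of 43.2%. The 4 single combinations were -0.69 ± 0.13, -0.87 ± 0.13, -0.90 ± 0.13 and -0.81 ± 0.13 (WT males and females, then Het males and females), with adjusted p-values of 0.000822, 2.27e-05, 6.14e-06 and 3.34e-05 by limma.

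Nr4a3, the receptor also called NOR1 (chr4:48045153-48086447, plus strand), had the largest averaged difference of the 10 genes, -1.001 ± 0.10 (adjusted p = 1.67e-11), a fall of 50%. Its level ran from 882 to 2147 with a median of 1297 with vehicle, from 374 to 942 with a median of 678 with fluoxetine and from 765 to 1666 with a median of 1310.0 with lithium. Of the 20 fluoxetine libraries, 16 lay below the lowest vehicle library. WT males were at 1206, 1249, 1292, 1484 and 1518 with vehicle and 488, 523, 618, 652 and 675 with fluoxetine. WT females were at 1041, 1364, 1431, 2043 and 2147 with vehicle and 449.9, 581, 680.0, 759.6 and 924 with fluoxetine. Neither pair of groups overlapped. Het males were at 1096, 1172, 1265, 1302 and 1410.3 with vehicle and 374, 599, 712, 799.7 and 915 with fluoxetine, again without overlap. Het females were at 882, 982, 1224, 1565 and 1749 with vehicle and 596, 772, 802, 887 and 942 with fluoxetine, and there the groups overlapped. The differences were -1.20 ± 0.20 and -1.23 ± 0.20 in WT males and females and -0.93 ± 0.20 and -0.65 ± 0.20 in Het males and females. The limma adjusted p-values were 0.000137, 6.97e-05, 0.00063 and 0.0191 in that order. The call in Het females was lost when only its own groups were fitted (adjusted p = 0.0617), without the 16 libraries of the highest olfactory bulb score (-0.49, adjusted p = 0.199), and without Het fluoxetine female replicate 4 (0.0664) or Het vehicle female replicate 5 (0.0685).

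Sik1, the inducible kinase that acts as the brake of the loop (chr17:31844250-31855804, minus strand), fell with Nr4a1 and Nr4a3, by 0.92 ± 0.08 on the log2 scale (SE; limma adjusted p = 3.19e-12), which is 47.0%. Its level ran from 380.0 to 725 with a median of 580.0 with vehicle, from 177 to 505 with a median of 302 with fluoxetine and from 406 to 800.2 with a median of 569 with lithium. Of the 20 fluoxetine libraries, 18 lay below the lowest vehicle library. In WT males vehicle gave 524, 559, 584, 585 and 641, and fluoxetine 221, 252, 264, 294 and 352. In WT females vehicle gave 393, 517, 608, 687 and 725, and fluoxetine 266, 269, 305, 314 and 347. Treated and untreated WT libraries were separate in both sexes. In Het males vehicle gave 532, 543, 576, 601 and 671, and fluoxetine 177, 245, 299, 344 and 401, also separate. In Het females vehicle gave 380.0, 503, 515, 617 and 674, and fluoxetine 257, 320.2, 345, 347 and 505, with 1 fluoxetine library inside the vehicle range. The differences were -1.08 ± 0.17, -0.94 ± 0.17, -1.04 ± 0.17 and -0.61 ± 0.17 (WT males and females, then Het males and females), with limma adjusted p-values of 6.00e-05, 0.000477, 3.56e-05 and 0.011. The call in Het females was lost when only its own groups were fitted (adjusted p = 0.0666) and without the 16 libraries of the highest olfactory bulb score (adjusted p = 0.0512).

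**Figure D3:**
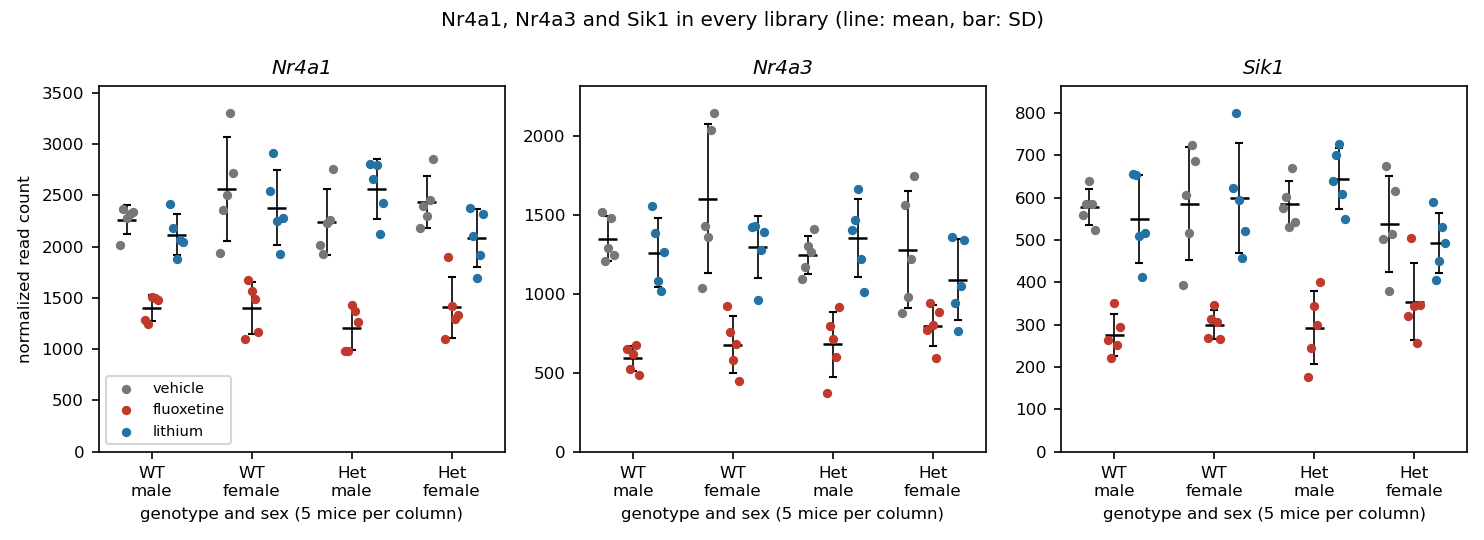
Normalized read counts of Nr4a1, Nr4a3 and Sik1 in each library (points), with the mean (line) and SD (bar) of each group of 5 mice, by genotype and sex on the horizontal axis and by treatment in colour. The fluoxetine libraries (red) sit below the vehicle libraries (grey) in every column of the Nr4a1 panel, from 984 to 1894 against 1927 to 3303. The lithium libraries (blue) of Nr4a1 ran from 1692 to 2915 and overlapped those of vehicle, with 4 of 20 below the lowest vehicle library.

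Nr4a2, the receptor also called Nurr1 (chr2:57106830-57124003, minus strand), was not called with fluoxetine in any combination in the limma fit, and other settings changed that in WT males and Het females. It ranged 19.5-fold over the 60 libraries, from 52.5 to 1025, against 3.36-fold for Nr4a1 and 5.74-fold for Nr4a3. In WT males it stood at 380.3, 430.2, 509, 645 and 910.0 with vehicle and 127, 149, 157, 312 and 619 with fluoxetine. In WT females it stood at 322, 379, 642, 755 and 958 with vehicle and 179.5, 206, 338, 400.1 and 621 with fluoxetine. All these groups overlapped. In Het males it stood at 385, 404, 541, 570.0 and 616 with vehicle and 52.5, 272, 443, 514 and 879 with fluoxetine. In Het females it stood at 81.9, 93.8, 125, 604 and 1025 with vehicle and 291, 519.6, 593, 782 and 869.7 with fluoxetine, so that 3 of the 5 vehicle libraries lay under all those of fluoxetine. The differences were -1.28 ± 0.55, -0.84 ± 0.55 and -0.67 ± 0.55 in WT males, WT females and Het males, and 1.33 ± 0.55 in Het females. The limma adjusted p-values were, in that order, 0.333, 0.447, 0.396 and 0.087. The average was -0.36 ± 0.27 (adjusted p = 0.315), with a 95% interval of -0.91 to 0.18. The Het female difference was called without Het vehicle female replicate 2 (1.87, adjusted p = 0.0117) or replicate 5 (1.68, adjusted p = 0.0347), and without the 16 libraries of the highest olfactory bulb score (2.34, adjusted p = 0.0211), while with 3 tissue scores as covariates it was -0.05 (adjusted p = 0.936). In WT males the difference was -0.72 (adjusted p = 0.245) with those 3 scores.

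The level of Nr4a2 moved with markers of deep neurons and of white matter. A score was taken per library as the mean of the centred log2 values of 8 markers of the claustrum and of layer 6b, the deepest cortical layer (Ccn2, Cplx3, Nxph4, Moxd1, Gnb4, Ntng2, Oprk1 and Synpr). All 8 were detected, none at 0 in every library, and their summed level ran from 5965 to 13790 with vehicle, 6401 to 12180 with fluoxetine and 6407 to 11640 with lithium. After the group means were taken off, log2 Nr4a2 followed this score over the 60 libraries with r = 0.89 and rho = 0.90 (permutation p = 1e-05 for both, the smallest that 100000 permutations can give; adjusted 6.67e-05 and 0.0001). It followed a score of 6 oligodendrocyte markers with r = 0.87 and rho = 0.88 (the same p-values). Without the 2 libraries farthest from the median score r was 0.89 and 0.87. These 2 of 9 marker lists were tested because their correlations with Nr4a2 had been seen to be the highest. The 20 relations, each list with each of the 10 genes, were adjusted together. Neither the permutations nor the adjustment take the choice of lists into account. The p-values for Nr4a2 are therefore no test of its relation to these lists, and r and rho are a description. The summed oligodendrocyte level ran from 31750 to 209700 with vehicle, 34070 to 192200 with fluoxetine and 30900 to 181900 with lithium, with 6 of 6 markers detected. The groups differed within these ranges: from Het vehicle females to Het fluoxetine females the median sum went from 6776 to 10440 for the claustrum and layer 6b markers and from 67400 to 158700 for the oligodendrocyte markers. Synpr, with a mean of 4711, weighs most in the first sum, where the next highest mean was 1604 (Gnb4). The median claustrum and layer 6b score of these groups went from -0.386 to 0.396.

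With the other members r was lower, and the differences between these r values were not tested. For the deep-neuron score r was 0.66 for Nr4a3 (permutation p = 1e-05, the smallest possible), 0.57 for Sik1 (permutation p = 9e-05), 0.55 for Sik2 (0.0002) and 0.52 for Sik3 (0.00065), with rho of 0.62, 0.49, 0.50 and 0.45. The adjusted values for r were 6.67e-05, 0.00045, 0.0008 and 0.00149. Without the 2 farthest libraries r was 0.61, 0.50, 0.47 and 0.45. For Nr4a1 it was 0.13 (rho 0.11, permutation p = 0.395, adjusted 0.494, r = 0.07 without the 2 farthest). Crtc1 went the other way, with r = -0.37 (permutation p = 0.0155, adjusted 0.0282, r = -0.33 without the 2 farthest). Its rho of -0.31 did not pass after adjustment (permutation p = 0.0371, adjusted 0.0674). For the oligodendrocyte score r was 0.55 for Nr4a3, 0.50 for Sik1, 0.39 for Sik2 and 0.54 for Sik3 (rho 0.51, 0.41, 0.33 and 0.44; adjusted permutation p for r 0.00107, 0.00129, 0.0239 and 0.00149). Creb1, Crem and Crtc2 gave no relation to either score that passed after adjustment, and neither did Nr4a1 and Crtc1 to the oligodendrocyte score. Het fluoxetine male replicate 1, which had the lowest score, was also the lowest library of its group for Nr4a2, Nr4a3, Sik1, Sik2 and Sik3. With both scores as covariates, a fit chosen after these relations were seen, the fluoxetine difference was -0.82 ± 0.06 for Nr4a1, -1.02 ± 0.08 for Nr4a3, -0.93 ± 0.07 for Sik1, -0.31 ± 0.04 for Sik2 and 0.15 ± 0.04 for Sik3, as large as without them. For Nr4a2 it became -0.43 ± 0.11 on average (limma adjusted p = 0.00124), in WT males -0.79 ± 0.22 (adjusted p = 0.0465), and in Het females 0.01 ± 0.24 (adjusted p = 0.983). Beyond that fit, the part of these cells in the Nr4a2 values was not tested. The other marker lists were not tested, and some members were more strongly related to those. For Sik3 r of the deviations was -0.67 with microglia, -0.55 with endothelium and -0.55 with astrocyte markers. For Nr4a1 it was -0.35 with astrocyte and -0.32 with microglia markers. In Het mice the mean microglia score was -0.248 with fluoxetine against 0.147 with vehicle in males, and -0.147 against 0.116 in females. In WT mice it was 0.092 against 0.029 and 0.151 against 0.009.

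**Figure D4:**
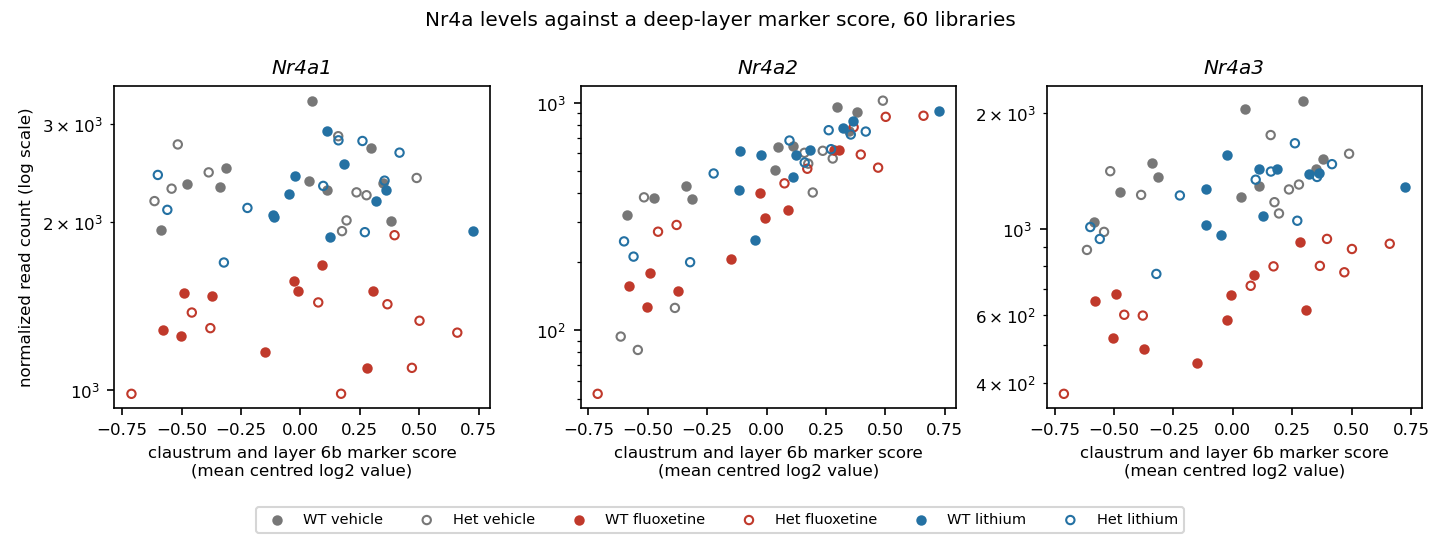
Normalized read count (log scale) of Nr4a1, Nr4a2 and Nr4a3 against the claustrum and layer 6b marker score in 60 libraries; colours give the treatment, filled points WT and open points Het. Nr4a2 is higher in libraries with a higher score, between 52.5 and 1025 over the 60 libraries, while the fluoxetine libraries (red) of Nr4a1 and Nr4a3 lie low across the score.

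Among the other kinases, Sik2 (chr9:50892801-51009073, minus strand), which phosphorylates CRTC in neurons, had an averaged fluoxetine difference of -0.30 ± 0.05 (adjusted p = 1.53e-06), a fall of 18.7%. In WT females it stood at 1096, 1191, 1217, 1260.4 and 1394 with vehicle and 806, 837, 853, 968 and 982 with fluoxetine. In WT males it stood at 1092, 1136, 1138, 1179 and 1273 with vehicle and 849, 886, 945, 946 and 1025 with fluoxetine. Neither pair overlapped, but only the first passed the test, with -0.47 ± 0.09 (adjusted p = 0.00159) against -0.32 ± 0.09 (adjusted p = 0.0627) by limma. In Het males vehicle gave 999, 1125, 1167, 1213 and 1234, and fluoxetine 725, 943, 991, 1029 and 1215. In Het females vehicle gave 938, 1111, 1111, 1303 and 1332, and fluoxetine 893, 956, 1094, 1106 and 1112. The Het groups overlapped in both sexes, with limma differences of -0.24 ± 0.09 (adjusted p = 0.0509) and -0.16 ± 0.09 (adjusted p = 0.241). Het males passed in 5 of the 13 other settings tried, and without Het fluoxetine male replicate 5 (-0.33, adjusted p = 0.00937), Het fluoxetine male replicate 2 (0.043) or Het vehicle male replicate 3 (0.0227). WT males passed in 4 settings and without WT fluoxetine male replicate 3 (-0.36, adjusted p = 0.047).

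Sik3 (chr9:46012820-46224194, plus strand) went the other way, by 0.15 ± 0.04 (adjusted p = 0.0037) on average, a rise of 11.1%. Het females stood at 2823, 2924, 2944, 3627 and 3688 with vehicle and 3724, 3804, 4257, 4371 and 4698 with fluoxetine, without overlap. Het males stood at 3017, 3157, 3268, 3309 and 3331 with vehicle and 2718, 3555, 3769, 4093 and 4600.2 with fluoxetine, with 1 fluoxetine library under the whole vehicle range and 4 above it. The limma difference was 0.39 ± 0.08 (adjusted p = 0.00132) in Het females and 0.20 ± 0.08 (adjusted p = 0.0767) in Het males, where it became 0.31 (adjusted p = 0.00291) without Het fluoxetine male replicate 1 and passed in 4 other settings. In Het females, whose marker sums differed between vehicle and fluoxetine as given above, the Sik3 difference was 0.26 (adjusted p = 0.0339) with the claustrum and oligodendrocyte scores as covariates and 0.55 (adjusted p = 0.00271) without the 16 libraries of the highest olfactory bulb score. In WT mice the groups overlapped. WT males stood at 3083, 3319, 3397, 3429 and 3473 with vehicle and 3030.0, 3132, 3204, 3562 and 3761 with fluoxetine. WT females stood at 3062, 3327, 3446, 3479 and 3592 with vehicle and 3233, 3273, 3371, 3573 and 3804 with fluoxetine. The WT differences were -0.01 ± 0.08 (adjusted p = 0.991) in males and 0.03 ± 0.08 (adjusted p = 0.901) in females by limma.

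Crtc2, the CRTC best known from liver (chr3:90254163-90264125, plus strand), differed by -0.16 ± 0.03 (adjusted p = 7.60e-05) on average with fluoxetine, a fall of 10.4%. Het females stood at 665, 677, 696, 708 and 718 with vehicle and 528, 533, 569.7, 583 and 653 with fluoxetine, without overlap. Het males stood at 639, 675, 696, 697 and 711 with vehicle and 512, 519, 605, 623 and 679 with fluoxetine. Both Het comparisons were called by limma, at -0.28 ± 0.06 (adjusted p = 0.00186) in females and -0.23 ± 0.06 (adjusted p = 0.00696) in males, and the male call was lost when only its own groups were fitted (adjusted p = 0.132) or without the 16 libraries of the highest olfactory bulb score (0.222). WT males stood at 573, 611, 612, 630.1 and 649 with vehicle and 573, 574, 575, 638 and 652 with fluoxetine. WT females stood at 652, 661, 676, 689 and 700.3 with vehicle and 589.7, 598, 627, 638 and 700.0 with fluoxetine. Both WT pairs overlapped, with limma differences of -0.03 ± 0.06 (adjusted p = 0.903) and -0.10 ± 0.06 (adjusted p = 0.415).

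**Figure D5:**
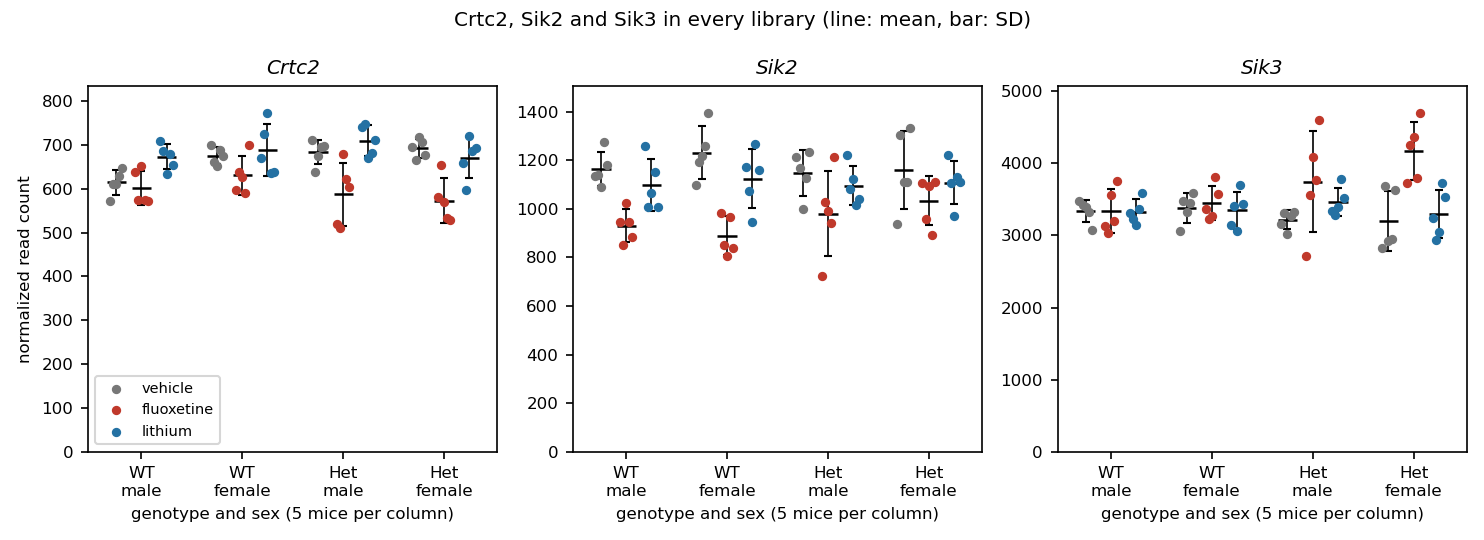
Normalized read counts of Crtc2, Sik2 and Sik3 in each library (points), with the mean (line) and SD (bar) of each group of 5 mice, by genotype and sex and coloured by treatment. In Het females the fluoxetine libraries of Sik3 lie at 3724 to 4698, above the vehicle libraries at 2823 to 3688, and those of Crtc2 lie at 528 to 653, below 665 to 718.

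Creb1, the transcription factor at the centre of the loop (chr1:64532645-64604548, plus strand), ran from 1770.0 to 2211 with a median of 1973 with vehicle, from 1747 to 2275 with a median of 1963 with fluoxetine and from 1805 to 2134 with a median of 1984 with lithium. Crem (chr18:3266048-3337748, minus strand) ran from 332 to 541 with a median of 399 with vehicle, from 355 to 489 with a median of 408 with fluoxetine and from 341 to 468 with a median of 434 with lithium. Crtc1 (chr8:70382355-70439579, minus strand) ran from 3959 to 5443 with a median of 4702 with vehicle, from 3951 to 5472 with a median of 4741 with fluoxetine and from 4121 to 4783 with a median of 4519 with lithium. The ranges of these 3 genes overlapped in every treatment. Their averaged fluoxetine differences had 95% intervals of -0.06 to 0.04 for Creb1, -0.09 to 0.09 for Crem and -0.06 to 0.07 for Crtc1. Creb1 had the narrowest range of the 10 genes over all 60 libraries, 1.30-fold.

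By single combination, fluoxetine comparisons called 3 of the 10 genes in male WT mice (background 1.34% of all genes), 4 in female WT mice (2.5%), 4 in Het males (22.7%) and 5 in Het females (15.1%). Nr4a1, Nr4a3 and Sik1 were among them in all 4. Of all genes, 1.09% were called lower in WT males and 1.9% in WT females, against 10.7% in Het males and 8.04% in Het females, where 7.08% were called higher.

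Whether the response to fluoxetine differed between the genotypes was tested as an interaction, Het response minus WT response. By limma 0 of the 10 genes were called, against a background of 1.7% of all genes (303 of 17807). At an unadjusted limma p under 0.05 there were 5 of the 10, and 3755 of all genes. The edgeR test called 0 of the 10 and 317 of all genes, and DESeq2 called 1 of the 10 and 840 of all genes. Sik3 came closest, at 0.28 ± 0.08 (adjusted p = 0.0585). Its call depended on the setting, since it passed with a filter at a mean of 50 (adjusted p = 0.0478), with DESeq2 (0.0293), and without any 1 of 9 libraries. These were Het fluoxetine female replicates 1 and 4, Het fluoxetine male replicate 1, Het vehicle female replicates 2 and 5, WT fluoxetine female replicate 4, WT fluoxetine male replicate 5, WT vehicle female replicate 1 and WT vehicle male replicate 5. Their adjusted p-values ran from 0.00819 to 0.0498, the lowest without Het fluoxetine male replicate 1, where the difference was 0.34. Crtc2 stood at -0.18 ± 0.06 (adjusted p = 0.083), Nr4a3 at 0.42 ± 0.20 (adjusted p = 0.201) and Nr4a1 at -0.07 ± 0.13 (adjusted p = 0.783) by limma. Nr4a2 stood at 1.39 ± 0.55 (adjusted p = 0.132), and it was called without Het fluoxetine male replicate 1 (1.71, adjusted p = 0.0298) or Het vehicle female replicate 2 (1.66, adjusted p = 0.0467). No difference in the response of Nr4a1 or Sik1 between genotypes was detected, with 95% intervals of -0.33 to 0.19 and -0.16 to 0.52.

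Under vehicle, no difference between Het and WT mice was detected in these genes. By limma 0 of 10 were called in males, in females and in both averaged, against backgrounds of 0.0168%, 0.0225% and 0.0562%. At an unadjusted limma p under 0.05 there was 1 of the 10 in each case, and 1463, 1149 and 1388 of the 17807 genes. Of the 10, 0 were called by edgeR or DESeq2. Of all genes edgeR called 4, 4 and 11, and DESeq2 called 9, 8 and 17. The averaged member differences ran from -0.73 to 0.09. Under lithium 0 of 10 were called (0 at an unadjusted p under 0.05, and 0 by edgeR and DESeq2), against 0.0393%. Under fluoxetine 1 was called, against 7.33% (3.45% higher): Sik3 was higher in Het mice, by 0.21 ± 0.06 (adjusted p = 0.0238). That call was lost without any 1 of 5 libraries (Het fluoxetine female replicate 5, Het fluoxetine male replicates 3 and 5, WT fluoxetine female replicate 2 and WT fluoxetine male replicate 1), with adjusted p-values from 0.0506 to 0.0705, when only the groups compared were fitted (0.137), with 3 tissue scores as covariates (0.0515) and without the 16 libraries of the highest olfactory bulb score (0.148). The difference without Het fluoxetine male replicate 5 was 0.17. Crem, at 0.17 ± 0.06 (adjusted p = 0.0817), was called without any 1 of 3 other libraries (Het fluoxetine female replicate 1, Het fluoxetine male replicate 1 and WT fluoxetine female replicate 4), with 0.19 in each case. Sik2, at 0.14 ± 0.07 (adjusted p = 0.183), was called without Het fluoxetine male replicate 1 (0.19, adjusted p = 0.0325).

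No difference between the sexes was detected in the 10 genes. By limma 0 were called between males and females (0 at an unadjusted p under 0.05, and 0 by edgeR and DESeq2), where 0.14% of all genes were. The interaction of sex with fluoxetine called 0 of 10 (1 at an unadjusted p under 0.05, 0 by edgeR and DESeq2) with a background of 0%, and those of sex or genotype with lithium called 0 of 10 as well (0 at an unadjusted p under 0.05, 0 by edgeR and DESeq2), with backgrounds of 0%. Over all genes those 3 limma tests called 0, with 819, 980 and 615 genes at an unadjusted p under 0.05; edgeR called 0 in each, and DESeq2 called 1, 0 and 0.

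With lithium none of the 10 genes passed the test. By limma 0 of 10 were called on average, while 19.1% of all genes were called. At an unadjusted limma p under 0.05 there was 1 of the 10, and 5739 of the 17807 genes. Of the 10, 0 were called by edgeR or DESeq2, which called 3492 and 3688 of all genes. In the single combinations 0 of 10 were called as well, by any of the 3 tools, against 0.0786% in male WT mice (1 member at an unadjusted p under 0.05), 0.118% in female WT mice, 2% in Het males and 0.629% in Het females (0 members each). Of all genes, 1619, 2010, 3487 and 2462 had an unadjusted limma p under 0.05 in these combinations, in that order. The averaged differences were -0.06 ± 0.06 for Nr4a1, -0.12 ± 0.10 for Nr4a3 and -0.00 ± 0.08 for Sik1, with 95% intervals of -0.19 to 0.07, -0.32 to 0.07 and -0.17 to 0.17. Crtc1 had the smallest p, at -0.07 ± 0.03 (adjusted p = 0.141), and it passed with 3 tissue scores as covariates (-0.09, adjusted p = 0.041) and without the 16 libraries of the highest olfactory bulb score (-0.11, adjusted p = 0.0242). Sik2 passed on average with the claustrum and oligodendrocyte scores as covariates (limma adjusted p = 0.0276). In Het females Nr4a2 (limma adjusted p = 0.0202) and Crtc1 (0.0497) passed without the 16 libraries. The Nr4a2 difference in Het females ran from 0.345 to 2.078 over the settings that leave out no single library.

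Set against lithium directly, fluoxetine gave calls for 6 of the 10 genes, with a background of 28.9% (14.3% lower and 14.6% higher). Nr4a1 differed by -0.76 ± 0.06 (adjusted p = 1.02e-13), Nr4a3 by -0.88 ± 0.10 (adjusted p = 4.60e-10) and Sik1 by -0.91 ± 0.08 (adjusted p = 2.00e-12) in limma. Sik2 differed by -0.21 ± 0.05 and Crtc2 by -0.20 ± 0.03 (limma adjusted p = 0.00035 and 1.60e-06). Sik3 was higher by 0.12 ± 0.04 (limma adjusted p = 0.0268), which missed the threshold without the 16 libraries of the highest olfactory bulb score (0.09, adjusted p = 0.148) and without Het fluoxetine male replicate 5 (0.10, adjusted p = 0.055). Nr4a2 was not called, at -0.63 ± 0.27 (adjusted p = 0.0759), and was called without any 1 of 4 libraries, Het fluoxetine male replicate 5, Het lithium male replicate 5, WT fluoxetine male replicate 3 and WT lithium female replicate 3, with adjusted p-values from 0.037 to 0.0485. It was also called with 3 tissue scores as covariates (-0.63, adjusted p = 0.000115), with the claustrum and oligodendrocyte scores (-0.52, adjusted p = 0.000216) and without the 16 libraries (-0.97, adjusted p = 0.00783). Crtc1 was not called, at 0.07 ± 0.03 (adjusted p = 0.0713), and was called without the 16 libraries (0.12, adjusted p = 0.00334) and without any 1 of 4 libraries, replicate 2 of the Het fluoxetine females, Het fluoxetine males or WT fluoxetine males or replicate 1 of the WT fluoxetine females, with adjusted p-values from 0.0245 to 0.0491. This comparison shares the fluoxetine libraries with that against vehicle, and both drugs were set against the same vehicle libraries.

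Other genes of the pathway were taken from lists, which were also chosen with earlier results of these data known. Their counts beside the shares of all genes are likewise a description and no test. Of 21 textbook CREB target genes, 12 were called lower with fluoxetine on average and 9 were not called, where 16% of all genes were called lower. Their median difference was -0.29. Those of the smallest p were Arc, which encodes a synaptic scaffold protein, at -1.82 ± 0.12 (limma adjusted p = 1.18e-17), the transcription factors Fos, at -1.25 ± 0.10 (adjusted p = 1.12e-13), and Junb, at -0.86 ± 0.08 (adjusted p = 8.89e-13), and the clock gene Per1, at -0.55 ± 0.05 (adjusted p = 3.22e-12). With lithium 4 of the 21 were called higher and 1 lower, near the background of 19.1%. Those of the smallest p were Vgf, which encodes a secreted neuropeptide precursor, at 0.45 ± 0.05 (adjusted p = 1.44e-08), and the stress gene Gadd45b, at 0.29 ± 0.08 (adjusted p = 0.00595). By combination 8 of the 21 were called lower with fluoxetine in male and 7 in female WT mice, and 8 in male and 7 in female Het mice, where 2 others were higher; the shares of all genes called lower in these groups are given above.

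Of 25 kinases and phosphatases upstream of CREB and CRTC, 24 were tested, and fluoxetine gave 13 called higher and 3 lower, against backgrounds of 17.6% and 16%, with a median of 0.07. These included the calcineurin subunits Ppp3r1 (0.20 ± 0.04, limma adjusted p = 7.75e-06) and Ppp3ca (0.14 ± 0.03, adjusted p = 0.000314), the kinase Camk1d (0.16 ± 0.03, adjusted p = 0.000137) and the adenylyl cyclase Adcy9 (0.27 ± 0.06, adjusted p = 0.000237). In Het males 12 were called higher and 2 lower, against 22.7% of all genes in either direction, and in Het females 4 were called higher, against 7.08%. In WT males and in WT females 0 of the 24 were called in either direction, against 1.34% and 2.5% of all genes. The list's median difference was 0.15 in male and 0.06 in female Het mice, and 0.02 in male and 0.07 in female WT mice. Lithium gave 3 higher and 1 lower on average, near the background of 19.1%, among them Prkaca, a catalytic subunit of protein kinase A (0.08 ± 0.02, adjusted p = 0.0185), and the calcium-dependent kinase Camk4 (-0.18 ± 0.05, adjusted p = 0.0122).

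Of 8 further CREB relatives and coactivators, 3 were called lower and 2 higher with fluoxetine (median -0.10), against 16% and 17.6% of all genes. The acetyltransferase Ep300 stood at -0.25 ± 0.04 (limma adjusted p = 8.07e-06), Crtc3, the remaining CRTC, at -0.23 ± 0.04 (adjusted p = 2.59e-05), Atf1 at -0.14 ± 0.04 (adjusted p = 0.00883) and Crebl2 at 0.12 ± 0.04 (adjusted p = 0.0152). With lithium, against a background of 19.1%, 2 of the 8 were called lower, Ep300 (-0.12 ± 0.04, adjusted p = 0.0325) and Atf1 (-0.12 ± 0.04, adjusted p = 0.0414). Of 15 brakes on cyclic AMP signalling and other SIK substrates, fluoxetine gave 5 higher and 5 lower (median -0.01), against 33.6% of all genes in either direction. Lower were the class IIa histone deacetylases Hdac4 (-0.19 ± 0.04, adjusted p = 0.000159) and Hdac7 (-0.16 ± 0.03, adjusted p = 9.19e-05), which SIKs phosphorylate. Higher were Pkia, an inhibitor of protein kinase A (0.10 ± 0.02, adjusted p = 0.000357), and the phosphodiesterase Pde4b (0.11 ± 0.03, adjusted p = 0.00043). Lithium gave 1 higher, Pde4a (0.15 ± 0.03, adjusted p = 9.07e-05), and 2 lower, among them Pde4d (-0.26 ± 0.06, adjusted p = 0.000932), a share near the background of 19.1%. Of the 3 retinoid X receptors, partners of Nr4a1 and Nr4a2, fluoxetine gave 2 higher, Rxra (0.29 ± 0.06, adjusted p = 8.91e-05) and Rxrb (0.08 ± 0.03, adjusted p = 0.0126), and left Rxrg uncalled (-0.05 ± 0.12, adjusted p = 0.777); Rxra was also higher with lithium (0.17 ± 0.06, adjusted p = 0.0277).

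The genes most like each member were looked for among 13696 genes with a mean of at least 50, by Pearson's r of log2 values over the 60 libraries, which share treatment, depth and tissue makeup. For Nr4a1 these were Arc (0.96), Junb (0.95), Fos (0.94), Midn (0.92) and Klf10 (0.91), and for Nr4a3 they were Fos (0.94), Tet3 (0.90), Sik1 (0.89), Fosl2 (0.88) and Klf10 (0.88). For Sik1 they were Irf2bpl (0.92), Fos (0.92), Nr4a1 (0.90), Kdm6b (0.90) and Mcl1 (0.90). For Nr4a2 they were Bcl11b (0.91), Efnb3 (0.91), Rgma (0.88), Glra2 (0.88) and Grik3 (0.87). For Crem the highest r was 0.66, with Nkrf. Fos was among the 5 closest genes of Nr4a1, Nr4a3 and Sik1, and was not among those of Nr4a2.

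With the group means taken off, the closest genes were sought again. Junb (0.85) and Arc (0.83) were again the closest to Nr4a1, and Dusp1 (0.79), Sertad1 (0.76) and Csrnp1 (0.75) took the places of Fos, Midn and Klf10. Nr4a2 stayed closest to Bcl11b (0.93), Efnb3 (0.90) and Rgma (0.89), and the myelin gene Mog (0.89) followed. Nr4a3 was close to Fosl2 (0.84), Fos (0.81), Nr4a2 (0.79), Tle4 (0.77) and Grik3 (0.77), a list with both immediate-early genes and genes on the Nr4a2 side. Sik1 was close to Fosb (0.76), Dusp5 (0.75), Fosl2 (0.73), Kdm6b (0.72) and Fos (0.70), and Crem to Pfkfb3 (0.75) and Homer1 (0.64). Among the members themselves r of these deviations was 0.79 between Nr4a2 and Nr4a3, 0.67 between Nr4a1 and Sik1 and 0.65 between Nr4a3 and Sik1, while Creb1 and Crtc1 went opposite ways (-0.51).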

How the data were processed

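Prefrontal cortex RNA of 60 mice was made into libraries with a stranded mRNA kit, per the labels' protocols. Build GRCm38 and the tools DESeq2 1.19.11, Salmon 0.11.2 and R 3.6.0 are listed, per the submitters' processing notes. The deposited values are a signal per gene: whole reads over a size factor particular to the library (0.818 to 1.0723), since multiplying back gave whole numbers within 0.001 for 100% of values. Gene names for 18077 of 18088 rows came from GENCODE M21.

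Differences were tested with limma 3.58.1 (R 4.3.3, trend option, two-sided) on log2(value + 1), with 1 mean per group and 48 residual degrees of freedom, over the 17807 genes that reached 10 in 5 or more libraries. Such fold changes understate those of low genes. Reads recovered from the values were tested with edgeR 4.0.16 and DESeq2 1.42.0 as alternatives. Named pathway genes were the 4 (fluoxetine) and 2 (lithium) of each list with the smallest p-values, besides the 10 members, and likeness lists were the 5 genes of highest r, of which 1 is not reported here. Marker scores with 100000 permutations were computed after the correlations of Nr4a2 with them had been seen. The members and lists were chosen with earlier results of these data known. Replicate numbers were not used as pairs in the main fit (median r of same-number deviations 0.001). Other settings tried were normalization, pseudocount, filter, groups in the fit, tissue scores, a replicate block and each library left out.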

Additional observations from a re-analysis of the deposited data

Results flagged for a closer look

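In 2 of the 120 gene and treatment groups of 5 mice, 1 library stood apart from the others of its group; chance alone gives about 1 in 20. Nr4a1 stood at 2012.4 in WT vehicle male replicate 1, where the nearest library of the group was at 2279.3, a gap of 0.74 of the group's range against a limit of 0.71. Creb1 stood at 1867.9 in Het lithium female replicate 5, where the nearest was at 1981.6, a gap of 0.73 of the range.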

How the results depend on the processing

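The fluoxetine average called 6 members by limma, edgeR and DESeq2 alike, where 5986, 5926 and 6088 of the 17807 genes were called. Member counts moved in few settings. The member counts that follow describe the settings only. Counts of all genes moved as well, and are given below as ranges over the settings. None of these member counts is therefore read against a background. When only the groups compared were fitted, fluoxetine in Het females gave 3 members and Het against WT under fluoxetine 0. With 3 tissue scores the latter was also 0, and the lithium average 1. Without the 16 libraries of the highest olfactory bulb score the same 2 counts were 0 and 1, and lithium in Het females gave 2 (Nr4a2 and Crtc1). With the 2 scores added after seeing the data, fluoxetine in WT males gave 5 and the lithium average 1 (Sik2). The genotype by fluoxetine interaction gave 1 with a filter at a mean of 50, with DESeq2 and with the replicate block (Sik3, 0.28, adjusted p = 0.0351); the block also called Sik3 in Het males (0.20, adjusted p = 0.0441). With single libraries left out, that interaction gave 0 to 2 members and Het against WT under fluoxetine 0 to 3. Deviations had a median r of 0.001 between same-numbered mice and -0.002 between others, and 18 of 60 libraries were closest to their own number. Whether 18 is more than chance gives was not tested. Counts over all genes moved more. Over the settings that leave out no single library, fluoxetine gave 87 to 939 genes in WT females (446 reported), 293 to 4414 in Het males (4037), 874 to 2962 in Het females (2691) and 3825 to 6602 on average (5986). Lithium gave 13 to 36 in WT males (14), 2 to 96 in WT females (21), 4 to 806 in Het males (356), 0 to 942 in Het females (112) and 2031 to 4221 on average (3401). Het against WT gave 0 to 9 (3) and 1 to 28 (4) in vehicle males and females, 5 to 19 (10) averaged, 112 to 1708 (1305) under fluoxetine and 4 to 11 (7) under lithium. The genotype by fluoxetine interaction gave 0 to 840 (303) and that of sex 0 to 2 (0). With single libraries left out, fluoxetine gave 151 to 230 genes in WT males (238), 177 to 494 in WT females, 2323 to 4418 in Het males and 1298 to 3277 in Het females. Lithium gave 0 to 4 in WT males, 0 to 28 in WT females, 71 to 1103 in Het males (the highest without Het vehicle male replicate 3) and 7 to 254 in Het females (the highest without Het vehicle female replicate 2). Het against WT gave 0 to 7 and 0 to 8 in vehicle males and females, 5 to 12 averaged, 672 to 2422 under fluoxetine and 4 to 9 under lithium, and the genotype by fluoxetine interaction 34 to 1336; 2422 and 1336 came without Het fluoxetine male replicate 1. The cause of these moves was not tested. Called members kept their direction in every setting.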
